A study of Mus musculus with 6 samples.

Results

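Immediate early genes and genes of MAPK feedback were followed in E0771 cells, a mouse breast carcinoma line, after knockdown of lamin A/C. The members were chosen by symbol as Fos, Fosl1, Jun, Junb, Egr1, Ier2, Ier3, Atf3, Dusp1 and Dusp6. Of these 10 genes, 8 had a row among the 10520 genes of the count table, and all 8 passed the filter on low counts. Fos and Egr1 were not analysed here. The shControl cells carried an empty pLKO.5-puro vector and the shLmna cells an shRNA against Lmna, named shRNA4 in the titles. Both groups were transduced with lentivirus, selected as pools in puromycin at 3 µg/ml and grown in medium with 10% serum. Each group had 3 libraries made by MARS-seq, a 3′-end method for polyadenylated RNA in which each captured molecule is counted once by its unique molecular identifier (UMI). The labels do not say that replicates were separate cultures, so p-values measure the spread between these libraries, which may be technical.

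Immediate early genes are transcribed within minutes of a stimulus from factors that are already present, and their RNAs are short-lived. Growth factors act through receptors and RAS on the kinase ERK, and stress acts on the kinases JNK and p38, and these MAP kinases switch on Fos, Jun and Egr genes through SRF, ternary complex factors and CREB/ATF proteins. Jun and Fos proteins pair as AP-1, a transcription factor of growth and invasion in carcinoma cells. Among the targets are dual-specificity phosphatases (DUSPs) that remove the activating phosphates from the kinases and so close a negative feedback loop.

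Of the members, the transcription factor genes Atf3 and Jun, the early response gene Ier3 and the phosphatase gene Dusp1 fell in shLmna cells, by 1.97- to 3.26-fold. Levels of Junb and Dusp6 overlapped between the groups. Fosl1 and Ier2 had lower mean values that did not pass the test. Of the 8 members, 3 were called lower by the study's criteria, which are a mean normalized count above 5, a change above 1 on the log2 scale and an adjusted p below 0.05. These were Atf3, Ier3 and Dusp1. Of all 8969 tested genes, 5.71% were called in either direction and 1.74% were called lower. By the adjusted p alone, Jun joined them, which made 4 of 8 lower where 5.78% of all genes were lower. Of all genes, 3.97% were called higher and 7.96% were higher by the adjusted p alone. No member was higher by edgeR's quasi-likelihood test, and 0 were higher at an unadjusted p below 0.05 or by DESeq2. At that unadjusted p, 1374 of the 8969 tested genes were higher and 1169 lower. By DESeq2's adjusted p, 562 of them were higher and 396 lower. The median log2 fold change of the members was -0.71, and that of all tested genes was 0.0033.

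The sequences around the starts of the 4 genes that fell are shown because motifs for ATF, CREB and AP-1 proteins are the known route by which such genes respond to kinases. They run from 250 bases before to 50 bases after the start in RefSeq GRCm38.p6, and capitals mark a motif match.
Jun promoter, chr4:95052173-95052472, reverse strand: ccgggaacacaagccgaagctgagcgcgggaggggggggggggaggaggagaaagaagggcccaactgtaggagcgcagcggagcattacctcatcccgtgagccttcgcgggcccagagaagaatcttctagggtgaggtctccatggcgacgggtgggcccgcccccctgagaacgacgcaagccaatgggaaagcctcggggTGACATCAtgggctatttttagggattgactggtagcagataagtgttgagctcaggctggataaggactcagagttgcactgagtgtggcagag
Dusp1 promoter, chr17:26508423-26508722, reverse strand: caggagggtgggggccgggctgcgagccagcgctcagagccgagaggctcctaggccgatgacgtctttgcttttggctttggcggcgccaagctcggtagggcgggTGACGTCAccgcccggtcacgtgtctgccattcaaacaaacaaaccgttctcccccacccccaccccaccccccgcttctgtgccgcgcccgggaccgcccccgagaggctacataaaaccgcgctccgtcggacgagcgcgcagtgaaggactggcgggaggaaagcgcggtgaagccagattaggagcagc
Atf3 promoter, chr1:191183284-191183583, reverse strand: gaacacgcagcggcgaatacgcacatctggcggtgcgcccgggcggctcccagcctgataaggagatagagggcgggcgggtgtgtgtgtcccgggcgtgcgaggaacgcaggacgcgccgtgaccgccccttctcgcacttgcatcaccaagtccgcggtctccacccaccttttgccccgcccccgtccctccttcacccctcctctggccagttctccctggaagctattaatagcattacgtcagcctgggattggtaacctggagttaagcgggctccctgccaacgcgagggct
Ier3 promoter, chr17:35821463-35821762, forward strand: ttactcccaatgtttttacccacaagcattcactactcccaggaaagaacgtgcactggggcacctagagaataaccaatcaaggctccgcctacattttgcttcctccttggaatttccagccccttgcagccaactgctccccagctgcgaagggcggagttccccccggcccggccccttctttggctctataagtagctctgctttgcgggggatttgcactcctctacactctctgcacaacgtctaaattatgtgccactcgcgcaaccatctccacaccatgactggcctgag
Motifs were searched on both strands, each on its own, so that matches of different motifs could overlap. RefSeq promoters were matched for 6 of the 8 members, these 4, Junb and Dusp6. The cyclic AMP response element (CRE), searched as TGACNTCA, occurred in Jun as TGACATCA from position -45 and in Dusp1 as TGACGTCA from position -143, both counted from the start. The other 4 promoters, those of Atf3, Ier3, Junb and Dusp6, did not hold these letters, so this spelling was in 2 of the 4 members that fell. CRE-like sites with other letters were not searched. Of all 32851 promoters of this length, 8.83% held this spelling. The AP-1 motif TGANTCA was found in 7.81% of all promoters, the EGR motif GCGNGGGCG in 5.55% and the CArG box of SRF in 1.63%. None of these 3 was matched in the 6 members' promoters, which says only that the letters are not in these windows. The TATA motif TATAAA, held by 13.6% of promoters, occurred in Junb.

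The 3′ ends hold the part of each RNA that was counted, and they carry the pentamer ATTTA, the core of AU-rich elements, which are known to shorten the life of early response RNAs. Stretches of 30 bases with the densest pentamers, in capitals, are shown for the same 4 genes, read from GENCODE M21 transcripts of the same genome.
Ier3 3′ UTR: taattaatATTTAtgtATTTAtgtatatcc
Jun 3′ UTR: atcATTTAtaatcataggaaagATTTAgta
Dusp1 3′ UTR: gctggtccttATTTATTTAacacccccctc
Atf3 3′ UTR: accaattccaggATTTAggccttatcatcc
The stretches end 409, 173, 566 and 945 bases before the ends of the Ier3, Jun, Dusp1 and Atf3 transcripts. Within the last 1000 bases, the pentamer occurred 5 times in Ier3, 4 times in Jun, 4 times in Dusp1 and 3 times in Atf3. It occurred 2 times in Junb, 1 time in Fosl1, 1 time in Dusp6 and 0 times in Ier2. The median over tested genes was 1, and 19.8% of them held at least 3, so the 4 members that fell all lay in that upper fraction and the other 4 did not. Dusp1 also held 2 matches of the longer element TTATTTATT, found in 4.41% of tested genes. These counts describe 8 genes, split by the same changes, and carry no test. The split did not hold in the lists examined below. Zfp36l1 with 7 pentamers and Fosl2 with 4, chosen after their values were seen, did not change by the adjusted p. Myc with 2 and Trib1 with 0 fell, and so did Csrnp1 with 5 and Rhob with 4.

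The libraries held from 1846208 to 3242051 UMIs. For Lmna, the targeted gene on chromosome 3, the control libraries held 2066, 2794 and 1764 UMIs and the knockdown libraries 1035, 1023 and 713, each set in the order of the replicate numbers, so that 43.6% of the control level was left once scaled. Libraries in plate positions 13 to 15 were shControl and those in 16 to 18 shLmna, and position and group cannot be told apart. The epithelial keratin gene Krt8 was present at 534 to 814 UMIs, Epcam had 8 to 46, and Krt19, Krt5, Cdh1 and Cldn7 were not analysed here. The 5 epithelial markers in the table, of 9 listed, summed to 276 to 330 CPM (counts scaled by TMM to a library total of 1000000) in shControl and 295 to 319 in shLmna. Krt8 made up most of this sum. Of the 4 epithelial markers tested, 3 had a log2 fold change below 0, with a median of -0.71, and 0 passed by edgeR's adjusted p or by DESeq2, with 2 lower at an unadjusted p below 0.05. These were Epcam, at 13.7 ± 0.627 CPM in shControl and 7.08 ± 4.07 in shLmna, and Krt14, at 8.24 ± 1.34 and 3.92 ± 2.66 (SD, n = 3), and neither overlapped between groups. At that unadjusted p, 1169 of all 8969 tested genes were lower. Without shControl replicate 3 and shLmna replicate 2, which melanocyte markers set apart, 1 of the 4, Epcam, was lower by edgeR's adjusted p.

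Of 7 fibroblast markers, 4 were in the table, and their sum was 18.6 to 18.8 CPM in shControl and 27.2 to 30.8 in shLmna. Of 7 leukocyte markers, 3 were in the table, with a sum of 15.9 to 19.2 CPM in shControl and 20.9 to 26.6 in shLmna, and the leukocyte gene Ptprc was not analysed here. Both sums were separate between groups. Pdgfrb, a receptor gene of mesenchymal cells, had 26, 41 and 19 UMIs in shControl and 51, 49 and 36 in shLmna (log2 fold change 0.74, adjusted p = 0.0457, edgeR's quasi-likelihood test, Benjamini-Hochberg), and it passed neither with DESeq2 nor without those 2 libraries. The lysozyme gene Lyz2 had 10, 23 and 13 against 42, 35 and 29 (log2 fold change 1.28, adjusted p = 0.011, edgeR). Cd68, the only other leukocyte marker tested, went the other way, with 34, 26 and 17 against 23, 15 and 10 (log2 fold change -0.62, adjusted p = 0.234, edgeR). Pdgfra, the only other fibroblast marker tested, had a log2 fold change of 0.04. The part of these markers in the members' change was not tested.

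Melanocyte markers set 2 libraries apart from the rest. Of 7 such markers, 6 were in the table, and their sum was 1421 UMIs in shControl replicate 3 and 1647 in shLmna replicate 2, or 0.0749% and 0.0629% of all UMIs. In shControl replicates 1 and 2 and shLmna replicates 1 and 3 the sum was 15, 7, 2 and 5, with Sox10 at 0 in each of these 4 libraries. These shares cover the 6 marker genes only, and not other transcripts of the same source. The paper also describes RNA-Seq of B16F10 melanoma cells. The source of these transcripts was not tested. One such library lies in each group, and results are given with all 6 libraries and, as a comparison of 2 with 2 chosen after seeing these counts, without both. Without both, 4 members were called lower (Jun, Ier3, Atf3 and Dusp1), where 168 of 8996 tested genes were called lower. In either direction 554 of the 8996 were called, against 512 of 8969 with all libraries. The plot of levels by library shows each member in every library.

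**Figure D1:**
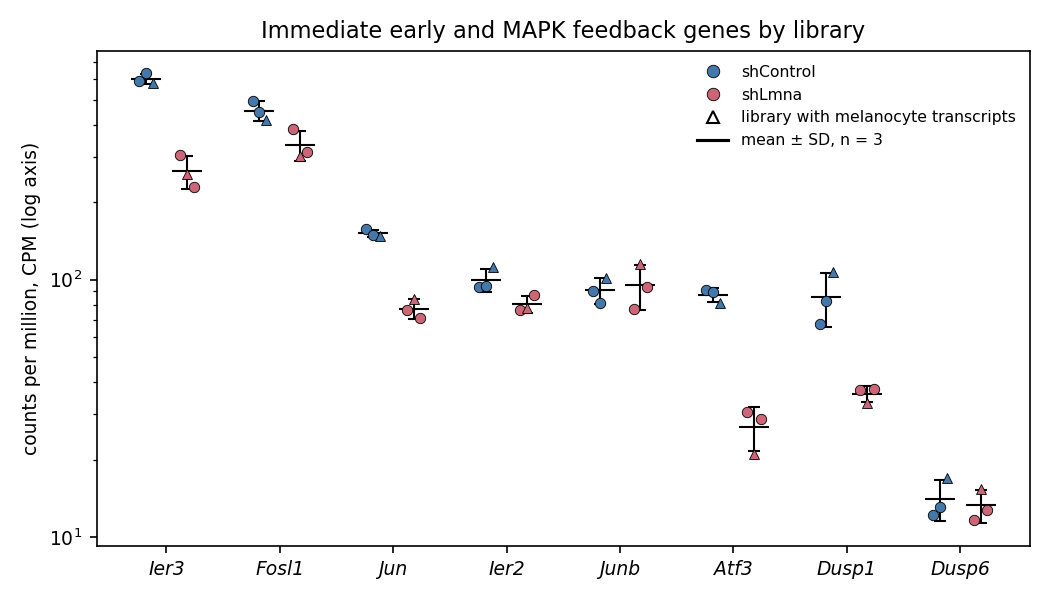
CPM after TMM scaling (log axis) for the 8 members in each library, with shControl in blue and shLmna in red, triangles for the 2 libraries with melanocyte transcripts and bars for the mean and SD (n = 3). Ier3, Jun, Atf3 and Dusp1 sit lower in all 3 shLmna libraries, while the groups overlap for Junb and Dusp6.

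Levels are in CPM, and since each gene was counted over the same length of its 3′ end, levels of different genes were compared on this scale without a further correction for length. In shControl, Ier3 was highest at 603 ± 27.3 (SD, n = 3), followed by Fosl1 at 454 ± 39.6 and Jun at 152 ± 5.11. Ier2, Junb, Atf3 and Dusp1 came next with means from 85.7 to 100.1, and neighbours in this order (Ier2, Junb, Atf3, Dusp1) overlapped over libraries, while every Ier2 value was above every Atf3 value. Dusp6 was lowest at 14.1 ± 2.55. In shLmna the order was Fosl1, Ier3, Junb, Ier2, Jun, Dusp1, Atf3 and Dusp6, with the ranges of Fosl1 and Ier3 overlapping and those of Junb, Ier2 and Jun overlapping as well. Summed over the 8 members, the level was 1602, 1594 and 1565 in the shControl libraries and 1000.3, 908 and 873 in the shLmna libraries. In whole cultures, fewer cells expressing a gene and less RNA per cell cannot be told apart.

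Jun encodes the founding AP-1 subunit and lies on chromosome 4 as a gene of a single exon (chr4:95049036-95052222, reverse strand). Its UMIs, in the order of replicates 1, 2 and 3, were 401, 479 and 278 for shControl and 204, 229 and 133 for shLmna. Every shLmna library was below every shControl library once scaled. Its level fell from 152 ± 5.11 to 77.1 ± 6.70 CPM (SD, n = 3 each), a log2 fold change of -0.97 (SE 0.14, adjusted p = 0.000471 by edgeR's quasi-likelihood test, Benjamini-Hochberg). The change lay just inside the limit of 1 and passed it without shLmna replicate 2 (-1.04), without both libraries with melanocyte transcripts (-1.05), and after correction for GC content (-1.04).

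Junb encodes another AP-1 subunit, which can stand in for Jun or oppose it depending on the promoter, and it also has a single exon (chr8:84976909-84978748, reverse strand). It had 231, 259 and 191 UMIs in shControl and 205, 314 and 176 in shLmna. The groups overlapped, with the highest scaled level in shLmna replicate 2 and the lowest in shLmna replicate 1. Its log2 fold change of 0.07 came with a 95% interval from -0.30 to 0.44 (adjusted p = 0.835, edgeR's quasi-likelihood test, Benjamini-Hochberg) and was -0.01 without both libraries with melanocyte transcripts.

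Within a library, the ratio of Jun to Junb does not depend on how libraries are scaled. It was 1.74, 1.85 and 1.46 in shControl and 0.995, 0.729 and 0.756 in shLmna. The ranges were separate, in the libraries without melanocyte transcripts too. With 3 libraries against 3, the exact two-sided permutation test gave p = 0.1, the smallest it allows, also after adjustment over the 3 ratios tested, and these ratios were chosen after the members' values were seen. Jund, the third Jun gene and the one known for steady expression, had 1048, 1497 and 772 UMIs in shControl and 1294, 1116 and 908 in shLmna, a log2 fold change of 0.10 (adjusted p = 0.697, edgeR's quasi-likelihood test, Benjamini-Hochberg). Of all UMIs of Jun, Junb and Jund, Jun made up 22.6% ± 1.23 in shControl and 12.2% ± 1.45 in shLmna (SD, n = 3). The share of Junb was 13.6% ± 1.91 and 15.1% ± 3.49, and that of Jund was 63.9% ± 2.71 and 72.6% ± 4.69.

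Fosl1 encodes FRA-1, the Fos-type partner of Jun that is known from invasive breast cancer cells, and lies at chr19:5447698-5455938 on the forward strand with 4 exons. It had 1264, 1437 and 786 UMIs in shControl and 1031, 825 and 590 in shLmna. The scaled levels did not overlap, and the mean was 454 ± 39.6 in shControl and 334 ± 45.4 in shLmna (SD, n = 3). With a log2 fold change of -0.44 (SE 0.14) it missed the threshold (adjusted p = 0.0549, edgeR's quasi-likelihood test, Benjamini-Hochberg). The adjusted p was 0.0488 with DESeq2, 0.0353 with the replicate number as a block and 0.0387 after correction for GC content, and over all 13 alternatives it ran from 0.0312 to 0.186. It was 0.0312 without shControl replicate 3, 0.0338 without shLmna replicate 1, and 0.0973 without both libraries with melanocyte transcripts. Ccdc85b overlaps the counted end of Fosl1 on the opposite strand, and whether strand was used in counting is not given in the sources used here. Fosl1 gave 94.5% of the UMIs of Fosl1, Fosl2 and Fosb in shControl and 93.5% in shLmna.

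Atf3 encodes a stress-induced bZIP factor that pairs with Jun proteins and often represses its targets. It lies at chr1:191170296-191183333 on the reverse strand, and its transcript has 4 exons. It had 232, 287 and 153 UMIs in shControl and 82, 57 and 54 in shLmna, and shLmna replicate 2 had the lowest scaled level. Atf3 showed the largest fall among the members, 3.26-fold, from 87.3 ± 5.34 to 26.8 ± 5.18 CPM (SD, n = 3). The log2 fold change was -1.71 (SE 0.18, adjusted p = 2.85e-05, edgeR's quasi-likelihood test, Benjamini-Hochberg). Only 41 of the 8969 tested genes, or 0.457%, had a log2 fold change at or below this value. Without both libraries with melanocyte transcripts the log2 fold change was -1.60 (adjusted p = 1.09e-05 by the same edgeR test).

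Ier3 and Ier2 are early response genes of unlike proteins. Ier3 encodes a regulator of survival that is phosphorylated by ERK, and it lies at chr17:35821713-35822911 on the forward strand with 2 exons. It had 1514, 2028 and 1097 UMIs in shControl and 814, 704 and 430 in shLmna. Its level fell from 603 ± 27.3 to 264 ± 38.5 CPM (SD, n = 3), so that the highest shLmna library was at 305 and the lowest shControl library at 582. The log2 fold change was -1.19 (SE 0.14, adjusted p = 8e-05, edgeR's quasi-likelihood test, Benjamini-Hochberg), and -1.20 without both libraries with melanocyte transcripts.

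Ier2, a single-exon gene at chr8:84661331-84662852 on the reverse strand, encodes a nuclear protein of the early serum response. It had 239, 303 and 211 UMIs in shControl and 203, 212 and 164 in shLmna. Its scaled level was 100.1 ± 10.2 in shControl and 80.4 ± 5.98 in shLmna (SD, n = 3), and the groups did not overlap. The difference did not pass the test (log2 fold change -0.32, 95% interval -0.64 to 0.0054, adjusted p = 0.184, edgeR's quasi-likelihood test, Benjamini-Hochberg), and it was -0.21 without both libraries with melanocyte transcripts. The ratio of Ier3 to Ier2 within a library was 6.33, 6.69 and 5.20 in shControl and 4.01, 3.32 and 2.62 in shLmna. Those ranges were separate too (exact two-sided permutation p = 0.1, the smallest possible), in a ratio chosen after the values of both genes were seen. Scaled levels of 6 of the 8 members were lower in every shLmna library than in any shControl library, where 15.7% of all tested genes were.

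Dusp1 and Dusp6 stand for the feedback arm. Dusp1 encodes MKP-1, a nuclear phosphatase that prefers p38 and JNK and also acts on ERK, and it lies at chr17:26505591-26508472 on the reverse strand with 4 exons. It had 172, 264 and 202 UMIs in shControl and 99, 90 and 71 in shLmna. Its scaled control levels spread most among the members relative to their mean, at 67.5, 82.5 and 107, and the highest was in replicate 3, one of the libraries with melanocyte transcripts. The shLmna libraries lay closely together at 36.0 ± 2.55 (SD, n = 3). The log2 fold change was -1.25 (SE 0.19, adjusted p = 0.000575, edgeR's quasi-likelihood test, Benjamini-Hochberg). Without both libraries with melanocyte transcripts it was -1.004 (adjusted p = 0.00199 by the same edgeR test).

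Dusp6 encodes MKP-3, a cytoplasmic phosphatase specific for ERK whose RNA is widely read as a measure of ERK output, and lies at chr10:99263231-99267489 on the forward strand with 3 exons. It had 31, 42 and 32 UMIs in shControl and 31, 42 and 24 in shLmna. The groups overlapped, with means of 14.1 ± 2.55 and 13.3 ± 1.95 CPM (SD, n = 3). Its log2 fold change was -0.06, and at this depth its 95% interval ran from -0.60 to 0.47 (adjusted p = 0.902, edgeR's quasi-likelihood test, Benjamini-Hochberg). Correction for GC content, which is 36.0% at the end of Dusp6 against a median of 47.3% over tested genes, moved it to -0.45 (adjusted p = 0.194 by the same edgeR test). The ratio of Dusp1 to Dusp6 was 5.55, 6.29 and 6.31 in shControl and 3.19, 2.14 and 2.96 in shLmna, without overlap (exact two-sided permutation p = 0.1, the smallest possible). This ratio too was chosen after the values of both genes were seen. With each gene's log2 level centred to mean 0 and scaled to SD 1 over the 6 libraries, so that only the shape of the profile and not the level counts, the tested genes nearest to Dusp6 were Tmem245, Deb1 and Bpnt1, at Euclidean distances of 0.107, 0.204 and 0.305. Tmem245 had only 8 to 19 UMIs per library. These were the closest of all tested genes outside the members, and their nearness carries no test of shared regulation.

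**Figure D2:**
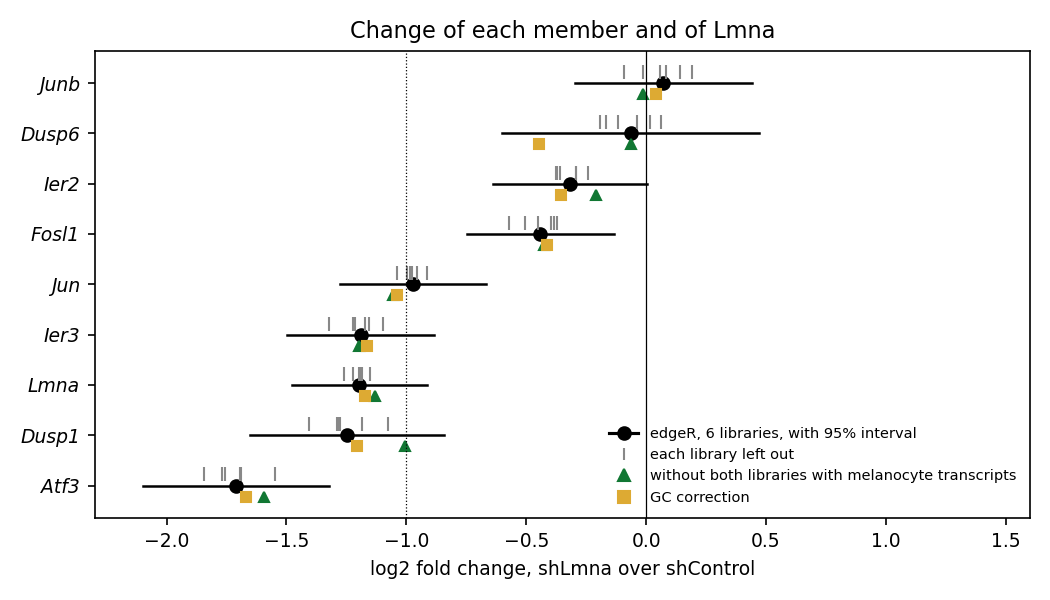
Log2 fold change of shLmna over shControl for each member and Lmna. Circles and lines give edgeR's estimate with its 95% interval over 6 libraries, ticks the values with each library left out, triangles those without the 2 libraries with melanocyte transcripts and squares those after GC correction, and the dotted line marks -1. Atf3, Dusp1 and Ier3 stay below -1 in every setting drawn, Jun lies on either side of -1, and Junb and Dusp6 lie on both sides of 0.

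**Figure D3:**
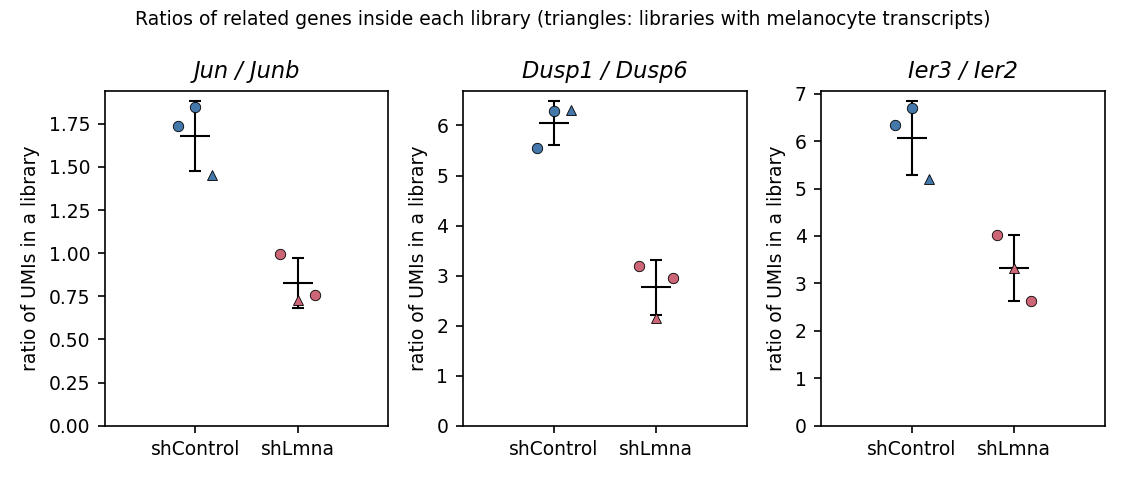
Ratios of the UMIs of pairs of members within each library (linear axes from 0), with shControl in blue, shLmna in red, bars for the mean and SD (n = 3) and triangles for the libraries with melanocyte transcripts. Ier3 and Ier2 encode unlike proteins. Jun to Junb fell from a mean of 1.68 to 0.827, Dusp1 to Dusp6 from 6.05 to 2.76 and Ier3 to Ier2 from 6.08 to 3.32, and no shLmna point reaches a shControl point. The pairs were chosen after the members' values were seen.

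Other early response genes were examined as a list of 34, of which 23 were tested. Of these 23, 12 fell and 1 rose at an adjusted p below 0.05, and 10 did not pass, with a median log2 fold change of -0.62. Over all tested genes, 5.78% fell and 7.96% rose by the same measure. DESeq2 gave 9 lower and 1 higher, and the comparison without both libraries with melanocyte transcripts 9 lower and 1 higher. Over all 8969 tested genes DESeq2 gave 396 lower and 562 higher. That comparison gave 480 lower and 690 higher over 8908. Of the 12 genes that fell, 6 did so under all 13 alternatives: Rhob, Csrnp1, Myc, Cyr61, Hbegf and Klf6. Rhob, which encodes a small GTPase, had 1691, 2333 and 1229 UMIs in shControl and 581, 538 and 441 in shLmna (log2 fold change -1.66, adjusted p = 3.76e-06, edgeR's quasi-likelihood test, Benjamini-Hochberg). Csrnp1, a nuclear early response gene, had 194, 257 and 175 against 76, 81 and 63 (log2 fold change -1.44). Myc, the growth-promoting transcription factor gene, had 1543, 1842 and 1150 against 765, 785 and 491 (log2 fold change -1.10). In each of these 3 genes all shLmna libraries lay below all shControl libraries.

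Cyr61, the gene of a secreted matricellular protein, had 857, 1052 and 837 UMIs in shControl and 449, 496 and 419 in shLmna (log2 fold change -0.95). Hbegf, the gene of an EGF receptor ligand that feeds back on RAS and ERK, had 175, 210 and 114 against 74, 81 and 86 (log2 fold change -0.94). The zinc-finger gene Klf6 had 430, 606 and 484 against 306, 338 and 226 (log2 fold change -0.77). The log2 fold change of Ctgf, the sister gene of Cyr61, was -1.37, and its adjusted p of 0.0107 by edgeR rose to 0.067 without shControl replicate 2 and 0.0528 without shLmna replicate 1. Areg, which encodes another EGF receptor ligand, was at -0.86 and lost its call without shLmna replicate 2 (adjusted p = 0.0629, edgeR) and without both libraries with melanocyte transcripts (adjusted p = 0.0548, edgeR). The nuclear receptor gene Nr4a1 (-0.85) and the stress gene Gadd45a (-0.62) lost theirs without both of these libraries as well (adjusted p = 0.0787 and 0.0679, edgeR). With a single library left out, Nr4a1 lost its call without shControl replicate 2, shLmna replicate 2 or shLmna replicate 3, and Gadd45a without any one of the 6, with adjusted p values up to 0.0858 and 0.136 by edgeR. With all 6 libraries, DESeq2 gave adjusted p values of 0.063 for Nr4a1 and 0.0508 for Gadd45a, so neither passed by it. A call in this paragraph means an adjusted p below 0.05 alone. Zfp36, which encodes a protein that binds AU-rich elements, was at -0.73 and lost its call without any one library other than shControl replicate 3 (adjusted p up to 0.156, edgeR). Trib1, which encodes a pseudokinase, was at -0.65 and lost its call without shControl replicate 1 or 2 or shLmna replicate 1 or 2 (adjusted p up to 0.0914, edgeR). The reverse direction was seen in Ier5l, which rose by 0.55 on the log2 scale and lost its call without shControl replicate 2, shLmna replicate 1 or shLmna replicate 2 (adjusted p up to 0.0945, edgeR).

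Of 10 other MAPK phosphatase genes tested, 3 fell and 0 rose by edgeR's adjusted p, and 0 rose at an unadjusted p below 0.05 or by DESeq2. The median log2 fold change was -0.40. The shares of all tested genes were 5.78% lower and 7.96% higher by the adjusted p. Dusp2, whose product is a nuclear phosphatase, had 189, 299 and 171 UMIs in shControl and 77, 101 and 74 in shLmna (log2 fold change -1.30, adjusted p = 0.000246, edgeR's quasi-likelihood test, Benjamini-Hochberg). Dusp4, another nuclear phosphatase gene, had 217, 264 and 174 against 120, 125 and 94 (log2 fold change -0.88). Both were called lower by adjusted p under all 13 alternatives. Dusp16, whose product acts on JNK and p38, had 149, 197 and 124 against 108, 107 and 57 (log2 fold change -0.74), and its adjusted p was 0.0585 without shControl replicate 2 and 0.065 without shLmna replicate 3 by edgeR. Dusp9, which encodes a cytoplasmic phosphatase for ERK and was the most abundant of the list, had 2494, 3156 and 1216 against 2434, 1715 and 921, with overlapping groups (log2 fold change -0.36, adjusted p = 0.287, edgeR).

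Other genes that ERK signaling is known to induce or that restrain it gave no lower call. Of 13 tested, 2 rose and 0 fell by edgeR's adjusted p, while 1 fell at an unadjusted p below 0.05 and 0 by DESeq2. Their median log2 fold change was 0.05. By the adjusted p, 7.96% of all tested genes rose and 5.78% fell. At an unadjusted p below 0.05, 1169 of all 8969 fell. Spred1, an inhibitor of RAS signaling, had 17, 36 and 22 UMIs in shControl and 45, 61 and 43 in shLmna (log2 fold change 1.06, adjusted p = 0.0158, edgeR's quasi-likelihood test, Benjamini-Hochberg), and its adjusted p ran up to 0.0705 with a library left out, crossing the threshold without shControl replicate 1 or 2 or shLmna replicate 2 or 3. Rasa2, a RAS GTPase activator, had 3, 2 and 8 against 14, 19 and 12, and passed under 4 of 13 alternatives, which include just the omission of shControl replicate 3 among the libraries left out singly. The counted ends of Spred1 and Rasa2 hold 38.6% and 34.6% GC. Tested genes at or below 40% GC had a median log2 fold change of 0.19. After correction for GC content Spred1 was at 0.88 (adjusted p = 0.0186, edgeR) and Rasa2 at 1.32 (adjusted p = 0.0741, edgeR). Etv4, an ETS factor gene downstream of ERK, had 217, 260 and 119 against 196, 192 and 126, and Spry4, another RAS pathway inhibitor, had 27, 29 and 18 against 28, 24 and 21. Both overlapped between groups, as did Phlda1, the most abundant gene of the list, at 320 ± 97.0 and 296 ± 48.2 CPM (SD, n = 3). Scaled levels of Spry1 and Etv5 did not overlap, and they went opposite ways. Spry1 had 15, 13 and 9 against 3, 11 and 3 (log2 fold change -1.05, adjusted p = 0.16, edgeR). Etv5 had 8, 14 and 4 against 13, 17 and 16 (log2 fold change 0.92, adjusted p = 0.135, edgeR). Of the 13, 1 was lower and 4 were higher without overlap, where 1409 and 1510 of all 8969 tested genes were. Etv4, Spry4, Spry1 and Etv5 fall outside the naming rule and were chosen after their values were seen.

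Upstream of the members, RNAs of the RAS and ERK cascade were examined for 25 tested genes. Of these, 4 rose and 0 fell by edgeR's adjusted p, with 1 lower at an unadjusted p below 0.05 and 0 lower by DESeq2, and the median log2 fold change was 0.16. Beside this, 7.96% of all tested genes rose and 5.78% fell by the adjusted p, and 1169 of 8969 fell at an unadjusted p below 0.05. Map2k2, the gene of an ERK-activating kinase and the most abundant of the list, was at 0.16. Shoc2, the gene of a scaffold for RAF activation, had 2, 3 and 3 UMIs in shControl and 23, 29 and 23 in shLmna, which is at least 8.498-fold higher against a floor of 3 UMIs per control library. Rps6ka4, the gene of a kinase that phosphorylates histone and CREB downstream of ERK and p38, had 466, 530 and 300 against 843, 745 and 517 (log2 fold change 0.77), and other transcripts on the same strand overlap its counted end. Both passed under all 13 alternatives. Mknk2, which encodes a kinase that acts on the translation factor eIF4E, had a log2 fold change of 0.45. It no longer passed without any one library other than shControl replicate 3 (adjusted p up to 0.146, edgeR).

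In the JNK and p38 cascades 13 genes were tested, of which 1 fell and 0 rose by edgeR's adjusted p, with 2 higher at an unadjusted p below 0.05 and 0 higher by DESeq2. Among all tested genes 5.78% fell and 7.96% rose by the adjusted p, so 1 of 13 lower is near the share of all genes. The gene that fell was Mapkapk5 (log2 fold change -0.69), whose counted end overlaps other genes on the same strand. Mapkapk5 no longer passed without shControl replicate 1 or 2 or shLmna replicate 2 or 3 (adjusted p up to 0.15, edgeR). Mapkapk2, the gene of a p38 effector kinase that stabilizes early response RNAs, had 610, 703 and 357 UMIs in shControl and 787, 798 and 532 in shLmna (log2 fold change 0.42, adjusted p = 0.0542, edgeR's quasi-likelihood test, Benjamini-Hochberg). Its adjusted p was 0.0442 by edgeR with the replicate number as a block. Over all 13 alternatives it ran from 0.0316 to 0.189 and was below 0.05 in 3. Of 5 tested genes of SRF and its partners, 0 passed by edgeR or by DESeq2 in either direction, and 2 were higher at an unadjusted p below 0.05. At that unadjusted p, 1374 of all 8969 tested genes were higher. All 5 had a log2 fold change above 0, with a median of 0.44, and the most abundant, Mkl1, was at 0.18.

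Of 14 other AP-1 and CREB/ATF genes tested, 1 rose and 1 fell, and their median log2 fold change was 0.05. Both counts are near the shares of all tested genes by the adjusted p, 7.96% higher and 5.78% lower. Atf2, whose product binds CRE motifs as a partner of Jun, had 1, 1 and 4 UMIs in shControl and 19, 35 and 21 in shLmna (adjusted p = 0.000535, edgeR's quasi-likelihood test, Benjamini-Hochberg). It passed under all 13 alternatives. Mafk, a small MAF gene, had 71, 100 and 45 against 47, 23 and 26 (log2 fold change -1.07), and its adjusted p reached 0.0915 without shControl replicate 2, 0.0626 without shLmna replicate 2 and 0.0553 without shLmna replicate 3 by edgeR. Atf4, the central gene of the integrated stress response and the most abundant of the list, had a log2 fold change of -0.17 that did not pass (adjusted p = 0.462, edgeR).

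Heat shock genes, which respond to stress and handling, were measured beside the members. All 8 tested had a log2 fold change below 0, with a median of -0.47. By edgeR's adjusted p, 3 fell (Hspa8, Hsph1 and Hspa1b), where 5.78% of all tested genes did. Their summed level was 6949 to 8193 CPM in shControl and 4219 to 5320 in shLmna, so the ranges were separate. Hspa8, a constitutive chaperone gene, had a log2 fold change of -0.78 and Hsph1 one of -0.85, and both passed under all 13 alternatives. Hspa1b had 52, 64 and 60 UMIs in shControl and 20, 46 and 10 in shLmna (log2 fold change -1.20), and its adjusted p by edgeR was 0.0772 without shControl replicate 2, 0.121 without shLmna replicate 1 and 0.133 without shLmna replicate 3. Their part in the members' change was not tested.

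Without both libraries with melanocyte transcripts, calls by edgeR's adjusted p were 3 lower among the MAPK phosphatases, 2 higher and 1 lower among the ERK-induced genes, 5 higher in the RAS and ERK cascade, 1 lower in the JNK and p38 cascades, 1 higher and 1 lower among the AP-1 and CREB/ATF genes and 4 lower among the heat shock genes. Over all these lists, among 111 tested genes, 9 were higher and 19 lower without those libraries, and 8 were higher and 20 lower with all 6. With all 6, 7.96% of all tested genes were higher and 5.78% lower. Without those libraries, 690 were higher and 480 lower of the 8908 genes tested in both comparisons. The number higher in the lists is therefore near the share of all genes.

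**Figure D4:**
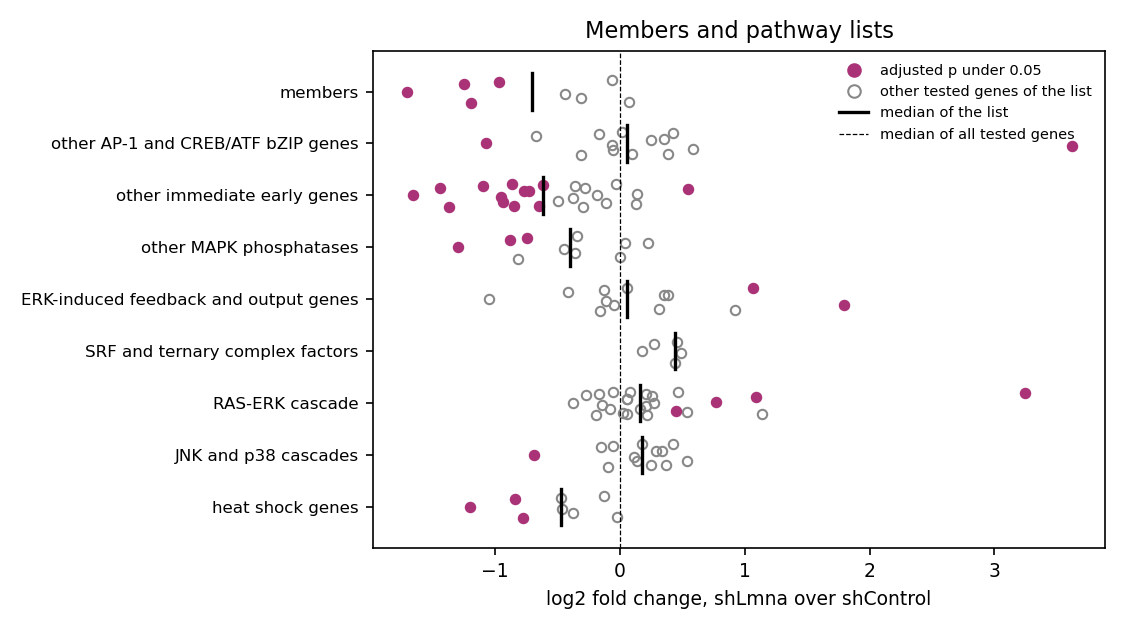
Log2 fold change of shLmna over shControl for the tested genes of each list, with filled points for an adjusted p below 0.05 by edgeR, bars for the list's median and a dashed line for the median of all tested genes. The members, the other early response genes, the MAPK phosphatases and the heat shock genes have medians of -0.71, -0.62, -0.40 and -0.47, while the other lists drawn have medians from 0.05 to 0.44. Cell type marker lists are not drawn.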

How the data were processed

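RNA of E0771 cells was measured in 3 shControl and 3 shLmna libraries. The authors trimmed MARS-seq reads with Cutadapt, mapped them to mm10 with STAR 2.4.2a and counted UMIs with a modified HTSeq over RefSeq gene ends (the final 1000 bases plus 100 downstream). The deposited counts are whole numbers without normalization. The authors' deposited columns of their own comparison (signal, fold changes, p-values) and their normalized, batch-corrected log2 values were not used. The members and the gene lists were chosen with earlier results of these data known.

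Groups and replicate numbers came from the labels. The tests used edgeR 4.0.16 in R 4.3.3: filterByExpr with a minimum count of 10, TMM scaling, and the quasi-likelihood test of shLmna against shControl with Benjamini-Hochberg adjustment over 8969 genes. The script recovered changed genes when tested on simulated counts. Those changes were larger than that of any member other than Atf3, and lay in genes above the level of Dusp6. Recovery of smaller changes, or at lower levels, was not tested. Alternatives were DESeq2 1.42.0, RLE scaling, no filter on low counts, a replicate block, a GC correction (loess offset, span 0.3, degree 2), both together, leaving out each library, and, chosen after seeing the data, leaving out both libraries with melanocyte transcripts. Ratios were tested by exact permutation with scipy 1.17.1. Sequences were read with Python 3.11.15 from RefSeq GRCm38.p6 promoters and GENCODE M21 transcripts, which matched 10467 of 10520 genes, 322 through an older symbol. Figures used matplotlib 3.10.9.

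Libraries held 1846208 to 3242051 UMIs. Named were the members, Lmna, the genes of the lists called by the study's criteria, then those with an adjusted p below 0.05, up to 30 genes, and the most abundant gene of each list. Other genes are named as chosen after their values were seen. Some genes that this rule names are not reported here.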

Additional observations from a re-analysis of the deposited data

How the results depend on the processing

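Jun, Ier3, Atf3 and Dusp1 kept an adjusted p below 0.05 and their direction under all 13 alternatives (12 planned and 1 added), and Lmna did so too. The number of members called was 3 to 4 and the number with an adjusted p below 0.05 was 4 to 5 with a library left out. The log2 fold change of Junb was 0.07 with all libraries, -0.011 without shControl replicate 2, -0.092 without shLmna replicate 2 and -0.012 without both libraries with melanocyte transcripts, and over the libraries left out singly it ran from -0.092 to 0.19. That of Dusp6 was -0.064, 0.061 without shControl replicate 3 and 0.016 without shLmna replicate 1, and ran from -0.19 to 0.061. That of Phlda1 was -0.11, 0.15 without shControl replicate 3 and 0.18 without both libraries with melanocyte transcripts, and ran from -0.27 to 0.15 over the libraries left out singly. Of all tested genes, 1232 had an adjusted p below 0.05 by edgeR, and 540 to 1580 with a library left out (794 without shControl replicate 1, 540 without shControl replicate 2, 757 without shLmna replicate 2, 651 without shLmna replicate 3). Of the genes in the pathway lists, 28 did so, and 15 to 33 with a library left out (15 without shControl replicate 2, 17 without shLmna replicate 2, 17 without shLmna replicate 3). Fewer libraries leave fewer degrees of freedom. Of these 28 genes, 13 kept an adjusted p below 0.05 under all 13 alternatives.

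Libraries that share a replicate number deviated from their group means with correlations over genes of 0.35, -0.11 and 0.0052, so the numbers were not taken to pair the samples. A replicate block in the fit gave 518 called genes against 512, and the members called were 3 in both. With the block, 5 members had an adjusted p below 0.05 against 4, the gene gained being Fosl1. The largest shift of the median log2 fold change of all genes was 0.0314, under GC correction. Depth limits Dusp6 most, at 24 to 42 UMIs per library.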

Other observations

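The melanocyte markers in shControl replicate 3 and shLmna replicate 2 came from several genes. Pmel, the gene of the melanosome fibril protein, had 450 and 499 UMIs in these libraries and at most 8 in any other. Tyrp1 had 428 and 461, Dct 271 and 306, and Mlana 205 and 316. The transcription factor genes Sox10 and Mitf, which specify the lineage, had 36 and 40 UMIs and 31 and 25 UMIs.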
